A study of Mus musculus with 5 samples.

Results

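DNA replication and nucleotide synthesis genes were followed in 5 cultures of mouse CD4 T cells. The set held 42 genes, taken by symbol from the groups of proteins that copy DNA and make its building blocks, out of 21366 genes with a value on all arrays. All 42 were matched to at least 1 probe through its RefSeq accession, and for each gene the probe with the highest mean signal was used. Only Cdc6, Rfc4 and Pole had a second probe.

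Each culture was measured on 1 array, and all of them began with naive CD4 T cells from the spleen of C57BL/6 mice. Th1reg cells had passed from the rested state into 4 days of the iTreg condition, which combines antibodies to CD3 and CD28 with IL-2 and TGF-b while IFN-g and IL-4 are blocked (12 days in all). Th1+TGFb cells were Th1 cells that went directly into that condition for 4 days (8 days in all). Rested cells were Th1 cells kept for 4 days in IL-2 with IFN-g and IL-4 blocked and without antibodies to CD3 or CD28 (8 days in all). iTreg cells came from naive cells after 4 days in the iTreg condition, and Th1 cells from naive cells after 4 days with antibodies to CD3 and CD28, IL-2 and IL-12 and a block of IL-4. The labels name the purpose only as profiling cells from different culture conditions, and how many mice gave the cells is not stated in the sources used here.

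With 1 array per culture there is no test, no p-value and no spread between cultures. A gene is called higher or lower here when it was at least 2-fold apart between arrays. The share of all genes past that mark is given for each of 7 comparisons. The arrays lay on 1 slide and were scanned together. Their 75th percentile of signal was 259 in Th1reg, 173 in Th1+TGFb, 128 in rested, 238 in iTreg and 206 in Th1, and between 45.7% and 48.7% of the spots were well above background. Values below are log2 of the processed signal over that percentile, called the scaled signal. They set 1 gene against itself across cultures and do not rank genes by amount of RNA. Repeat spots of other probes gave a median SD of 0.0553 to 0.0729 log2 units per array, and the SD of a difference between arrays from this source was at most 0.0946, or 0.278 where the signal was under 100. No probe of the 42 genes had repeat spots.

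The labelled cell type was checked against 10 T cell markers. Cd3d, Cd3e, Cd3g, Cd247, Cd4, Cd2, Cd5, Lck, Cd28 and Zap70 were all well above background on all 5 arrays. Of these only Cd4 sets CD4 T cells apart from CD8 T cells, so the check speaks mainly for T cells. Cd8b1 was well above background on all 5 arrays and Cd8a only on the iTreg array. In RNA from whole cultures, fewer cells of a type and less RNA per cell cannot be told apart, and this holds for every difference below.

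Before S phase, origins are bound by the origin recognition complex, and Cdc6 and Cdt1 load the ring of Mcm2 to Mcm7 proteins onto DNA. The ring becomes an active helicase when Cdc45 and the GINS complex join it, polymerases alpha, delta and epsilon copy the strands behind it, and Pcna, loaded by the replication factor C proteins, holds the polymerases on DNA. Ribonucleotide reductase, thymidylate synthase and thymidine kinase supply the deoxynucleotides. Naive and resting T cells do not divide, and receptor stimulation with IL-2 is the classical way to bring them into the cell cycle.

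On the scaled signal, the genes had largely 1 order across the cultures. The rested array was the lowest of the 5 for 41 of 42 genes, the exception being Gins3, against 34.1% of the 14064 genes well above background on at least 1 array. Th1reg was the highest array for 34 genes (30.1% of all genes), Th1 for 7 (22.0%) and iTreg for Tyms alone (13.7%). The 7 genes highest in Th1 were Gins3, Gins4, Cdt1, Orc1, Rfc1, Rfc2 and Rfc3. Th1+TGFb was the second lowest array, above rested, for 37 genes against 16.2% of all genes, and the exceptions were Gins3, Rfc2, Rfc3, Rpa3 and Dut. The full order from high to low of Th1reg, Th1, iTreg, Th1+TGFb and rested was found for 29 of the 42 genes and for 7.93% of all genes. The upper part of this order depended on the processing. Over the ways tried, iTreg was highest for 1 to 14 of the 42 genes (13.7% to 27.6% of all genes). The full order was found for 11 to 29 (3.38% to 17.7%).

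**Figure D1:**
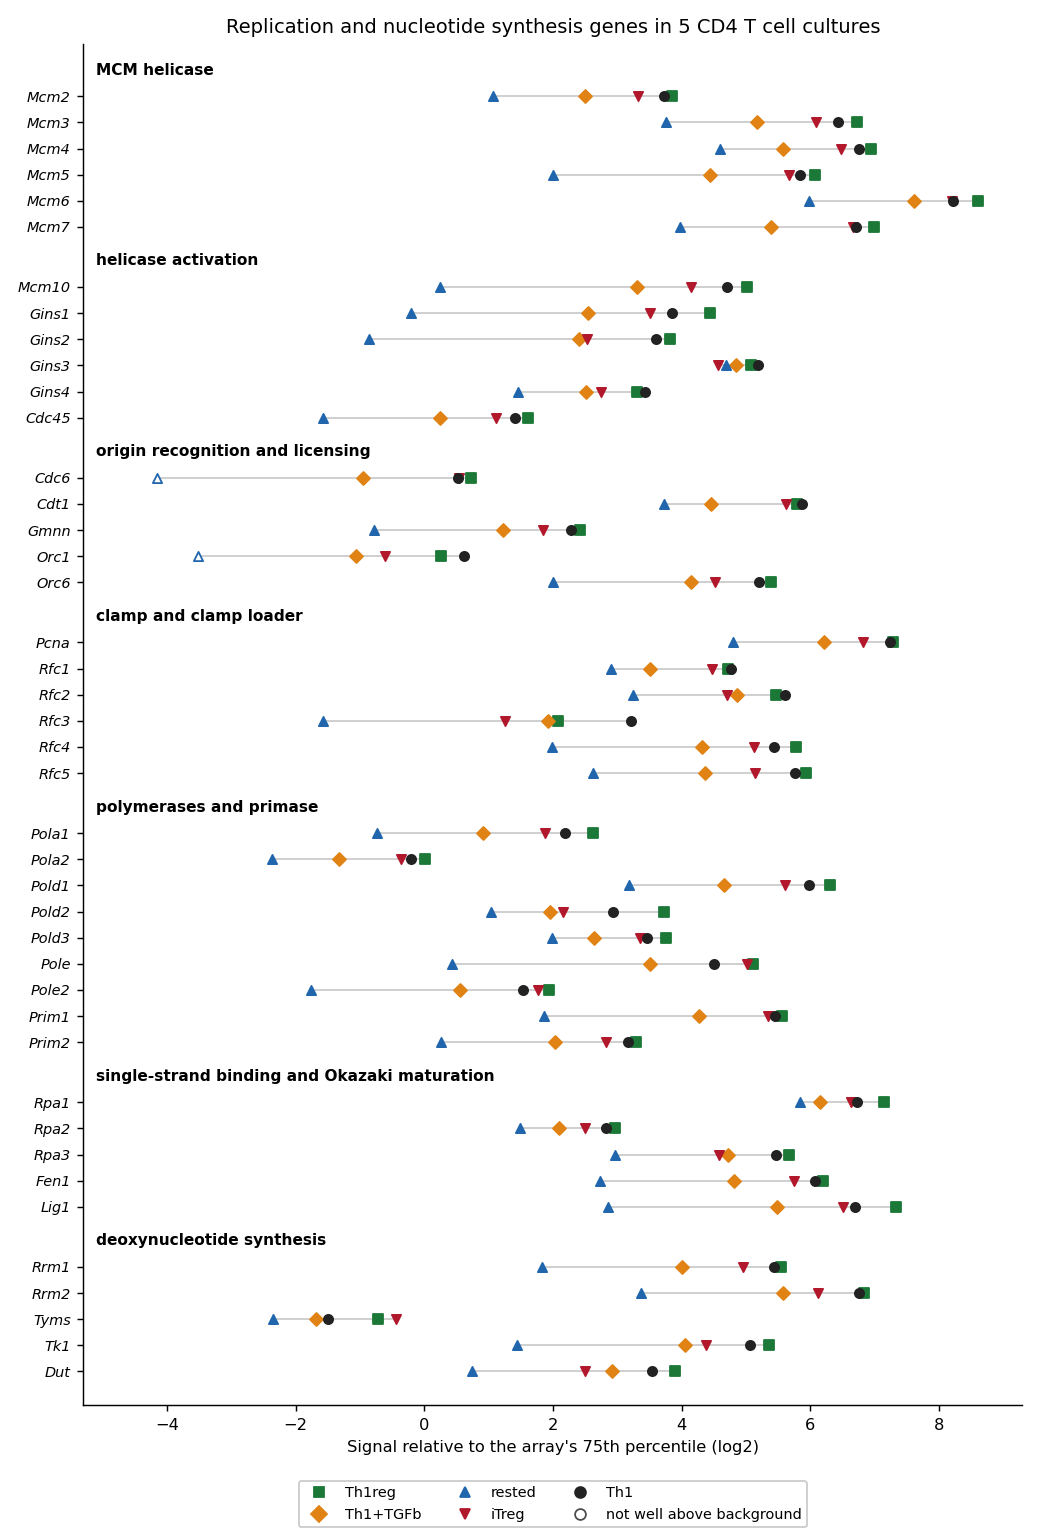
Scaled signal (log2 of signal over the array's 75th percentile, horizontal axis) of each of the 42 genes, grouped by role, with 1 point per culture and open points for signals not well above background. The rested point lies furthest left for all genes but Gins3, and Th1reg furthest right for 34.

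Neighbours in this order were not equally far apart. Between Th1reg and Th1 the median difference over the 42 genes was 0.20, and 41 genes were under 2-fold apart. In 16 the difference was no more than 2 times 0.0946, the SD from repeat spots given above. Those spots share an array and the value was used for dim genes too, so a larger difference need not exceed technical noise between arrays. Between iTreg and Th1 the median was -0.35, with 37 genes under 2-fold and 9 within 2 of these repeat-spot SDs. Th1+TGFb minus iTreg had a median of -0.82, with 33 genes under 2-fold. The step between Th1+TGFb and rested was the widest of these, with a median of 1.76, all 42 genes higher in Th1+TGFb, and only 9 of them under 2-fold apart. It ran between 0.15 for Gins3 and 3.49 for Rfc3. The share of all genes was not computed for Th1+TGFb against iTreg or against rested. These steps therefore describe the 42 genes only.

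Rested cells were first set against the Th1 cells that they came from, which addresses how the genes stood after 4 days without receptor stimulation. Of the 42 genes 39 were at least 2-fold lower in rested cells and none was higher, against 28.2% lower and 16.7% higher among 13234 genes. The median log2 difference was -2.91 for the 42 genes and -0.34 for all genes. The cultures also differed in IL-12, in the block of IFN-g and in days of culture, which cannot be told apart from the missing stimulation. Gins3, Tyms and Rpa1 were the genes under 2-fold.

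The helicase ring was lower as a whole. Mcm5 had a scaled signal of 6.08 in Th1reg, 4.44 in Th1+TGFb, 2.002 in rested, 5.67 in iTreg and 5.84 in Th1. Its rested value lay far below all others, 14.3-fold under Th1, while Th1reg, iTreg and Th1 were close together. Mcm6 stood at 8.61 in Th1reg, 7.61 in Th1+TGFb, 5.99 in rested, 8.21 in iTreg and 8.22 in Th1, which made it 4.68-fold lower in rested than in Th1. The other ring genes had rested minus Th1 differences of -2.67 (Mcm2), -2.67 (Mcm3), -2.15 (Mcm4) and -2.75 (Mcm7). The 6 proteins form 1 ring, yet their RNA differed between rested and Th1 cells by 4.44-fold for Mcm4 and by 14.3-fold for Mcm5.

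Among the helicase activators, the 4 subunits of the GINS complex went apart. Gins1 stood at 4.44 in Th1reg, 2.54 in Th1+TGFb, -0.20 in rested, 3.51 in iTreg and 3.85 in Th1, and was 16.6-fold lower in rested than in Th1. Gins2 stood at 3.82 in Th1reg, 2.41 in Th1+TGFb, -0.85 in rested, 2.54 in iTreg and 3.60 in Th1, a 21.9-fold difference between rested and Th1. Gins4 was 3.97-fold lower in rested. Gins3, in contrast, was nearly level, at 5.09 in Th1reg, 4.85 in Th1+TGFb, 4.70 in rested, 4.56 in iTreg and 5.19 in Th1. Its whole range over the cultures was 0.63 log2 units, the narrowest of the 42 genes, and its rested minus Th1 difference of -0.49 went between -1.61 and 0.29 over the other ways of processing the arrays.

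Mcm10, which is needed to start the assembled helicase, stood at 5.02 in Th1reg, 3.30 in Th1+TGFb, 0.24 in rested, 4.15 in iTreg and 4.71 in Th1. Rested cells were 22.0-fold below Th1. Cdc45, the partner of GINS in the helicase, had a rested minus Th1 difference of -2.99.

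The licensing genes Cdc6 and Orc1 were the members not well above background on the rested array. Cdc6, the loading factor that joins Orc at origins, stood at 0.72 in Th1reg, -0.96 in Th1+TGFb, 0.55 in iTreg and 0.52 in Th1, and was lower in rested than in Th1 by a factor of 11.96 or more. Orc1, the subunit of the origin recognition complex whose amount changes through the cell cycle, stood at 0.26 in Th1reg, -1.07 in Th1+TGFb, -0.60 in iTreg and 0.62 in Th1, and was at least 12.8-fold lower in rested. Of the 4 arrays that measured them, Th1+TGFb was the lowest for both. These folds are bounds against the lowest signal well above background on the rested array, -3.06. They hold for the main scaling only. Over the ways of processing, the rested minus Th1 difference was -4.69 to -2.34 for Cdc6 and -4.79 to -2.27 for Orc1.

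Cdt1, which works with Cdc6 in loading, was less far apart, at 5.80 in Th1reg, 4.45 in Th1+TGFb, 3.73 in rested, 5.63 in iTreg and 5.87 in Th1. Its inhibitor geminin, encoded by Gmnn, had a rested minus Th1 difference of -3.06, against -2.13 for Cdt1. Orc6, another subunit of the origin complex, had -3.19.

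Pcna, the sliding clamp, stood at 7.29 in Th1reg, 6.22 in Th1+TGFb, 4.80 in rested, 6.82 in iTreg and 7.24 in Th1, so that rested cells were 5.43-fold below Th1. The reference lists 2 pseudogenes named after Pcna, and the probe may read their RNA too. The clamp loader subunits differed among themselves more than the ring did. Rfc3 stood at 2.08 in Th1reg, 1.93 in Th1+TGFb, -1.57 in rested, 1.26 in iTreg and 3.22 in Th1. It was highest in Th1 by more than 1 log2 unit and 27.5-fold lower in rested than in Th1, the largest difference among the 40 genes well above background on both arrays, though its rested signal of 43.3 lay in the range of lower precision.

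The large loader subunit Rfc1 was 3.63-fold lower in rested than in Th1, with 4.72 in Th1reg, 3.51 in Th1+TGFb, 2.90 in rested, 4.47 in iTreg and 4.76 in Th1. The rested minus Th1 differences of the other loader genes were -2.36 (Rfc2), -3.46 (Rfc4) and -3.13 (Rfc5). Both probes of Rfc4 were lower, by -3.46 and -3.71.

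All 9 polymerase and primase genes passed the 2-fold mark downward in rested cells. Pole, the catalytic subunit of polymerase epsilon on the leading strand, stood at 5.11 in Th1reg, 3.50 in Th1+TGFb, 0.43 in rested, 5.02 in iTreg and 4.51 in Th1. Rested cells were 16.8-fold below Th1. The signal of its second probe was dim on all 5 arrays. The other epsilon subunit in the set, Pole2, had a rested minus Th1 difference of -3.28.

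Polymerase delta, which copies the lagging strand, differed less. Its catalytic subunit Pold1 had a rested minus Th1 difference of -2.79, and the accessory subunits had -1.90 (Pold2) and -1.47 (Pold3). Pold3 stood at 3.76 in Th1reg, 2.64 in Th1+TGFb, 1.99 in rested, 3.35 in iTreg and 3.46 in Th1. Of the enzymes that lay down primers, the primase subunits had -3.59 (Prim1, catalytic) and -2.92 (Prim2), and the polymerase alpha subunits -2.91 (Pola1, catalytic) and -2.17 (Pola2).

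The single-strand binding protein RPA has 3 subunits, whose differences between rested and Th1 cells were -0.88 (Rpa1), -1.34 (Rpa2) and -2.50 (Rpa3). Rpa1, the largest subunit, stood at 7.15 in Th1reg, 6.15 in Th1+TGFb, 5.85 in rested, 6.63 in iTreg and 6.73 in Th1, a narrow span beside the rest of the set. Lig1, the ligase that seals Okazaki fragments, stood at 7.33 in Th1reg, 5.48 in Th1+TGFb, 2.85 in rested, 6.51 in iTreg and 6.70 in Th1. It was 14.4-fold lower in rested than in Th1, and Fen1, the nuclease that trims the fragments before ligation, was 10.1-fold lower.

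Both subunits of ribonucleotide reductase, which turns ribonucleotides into deoxynucleotides, were lower. Rrm1 stood at 5.55 in Th1reg, 4.01 in Th1+TGFb, 1.83 in rested, 4.95 in iTreg and 5.43 in Th1, and Rrm2 at 6.83 in Th1reg, 5.57 in Th1+TGFb, 3.36 in rested, 6.11 in iTreg and 6.76 in Th1. They were 12.1-fold and 10.5-fold lower in rested than in Th1. Tk1, the cytosolic thymidine kinase of the salvage route, was 12.3-fold lower, and Dut, which removes dUTP and so keeps uracil out of DNA, was 6.96-fold lower.

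Tyms, which makes the thymidylate of the other route, did not follow Tk1. It stood at -0.71 in Th1reg, -1.68 in Th1+TGFb, -2.35 in rested, -0.44 in iTreg and -1.50 in Th1. Its rested minus Th1 difference was -0.85, and Th1reg and iTreg were higher than Th1. The Tyms probe was dim, with signals between 25.2 and 175, and a pseudogene named after Tyms may add to it.

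Summed markers of B cells and of myeloid cells were highest in the rested culture, while those of CD8 T and NK cells and of erythroid cells were not. Summed over 7 B cell markers, the scaled signal on the linear scale was 1.03 in Th1reg, 2.56 in Th1+TGFb, 4.76 in rested, 2.34 in iTreg and 1.24 in Th1. Cd79a, Pax5 and Blk were dim, that is not well above background, in all 5 cultures. The sum over 10 myeloid markers was 467 in Th1reg, 1296 in Th1+TGFb, 1948 in rested, 1027 in iTreg and 642 in Th1, with Lyz2, Lyz1, S100a8 and S100a9 dim in all 5 cultures. Nearly all of that sum came from Itgam, Csf3r and Siglech, with scaled signals in rested of 9.01, 9.33 and 9.62, against 0.23 for Csf1r, -2.27 for Cd14 and -2.58 for Adgre1. The sum over the 10 T cell markers, Cd4 among them, was 1821 in Th1reg, 2330 in Th1+TGFb, 1869 in rested, 1075 in iTreg and 2389 in Th1. For 6 CD8 T and NK cell markers it was between 1.86 in iTreg and 8.86 in Th1+TGFb, with Ncr1 and Klrb1c dim in all 5 cultures. Klra8 carried most of that sum in Th1+TGFb, while Cd8a was well above background only in iTreg, at least 10.1-fold above Th1 and at least 9.68-fold above Th1reg. For 5 erythroid markers the sum was between 0.301 in rested and 0.887 in Th1reg, with Klf1 and Alas2 dim in all 5 cultures. The part of such cells in the differences was not tested.

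**Figure D2:**
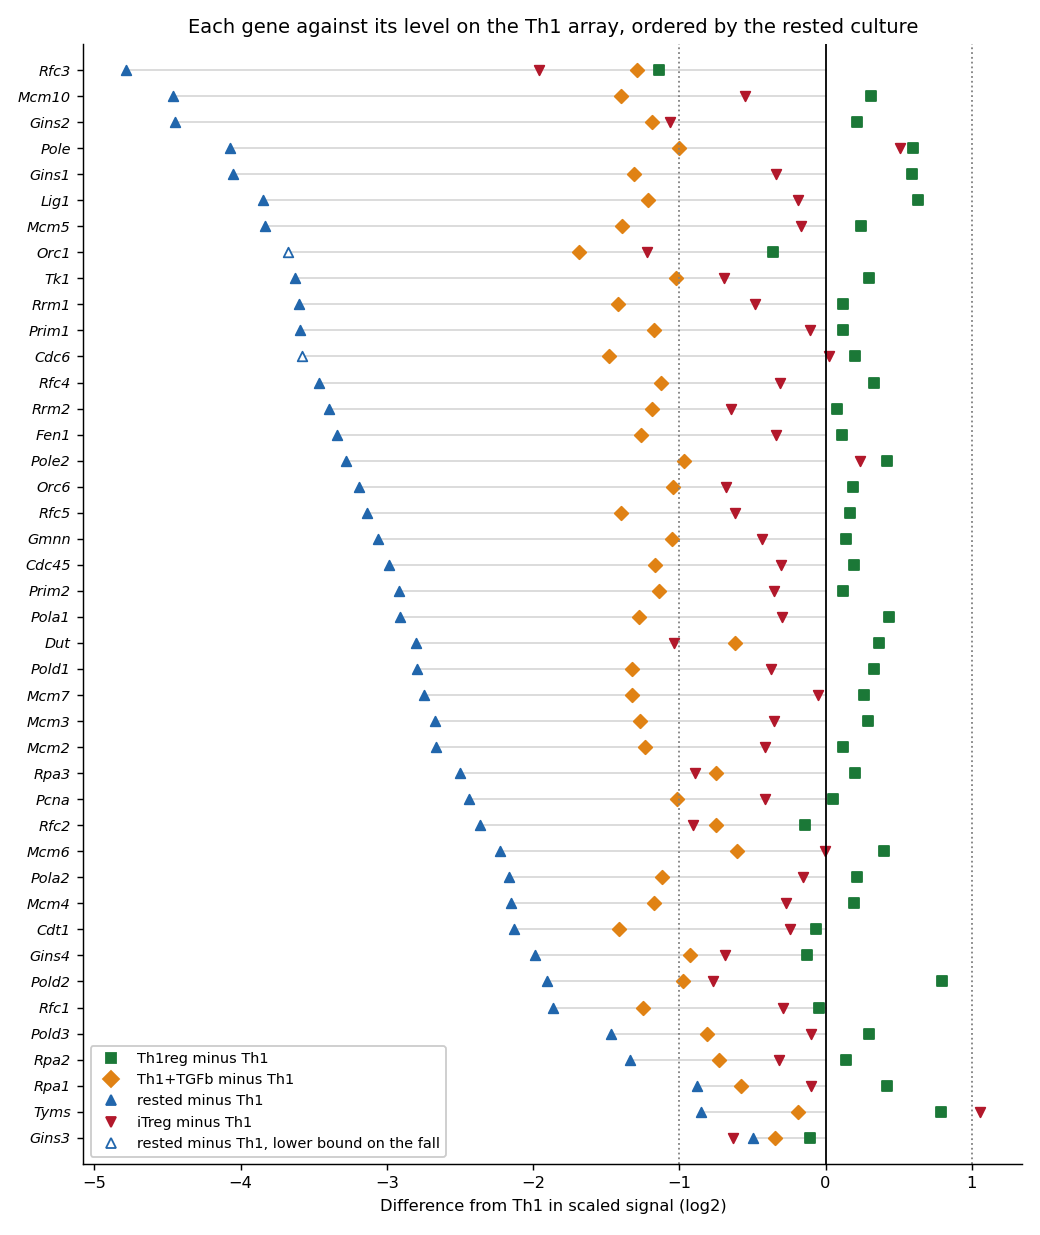
Difference of each culture from the Th1 array in scaled signal (log2, horizontal axis) for the 42 genes, ordered by the rested culture, with open triangles where the rested value is a bound. The rested points run from -4.78 for Rfc3 to -0.49 for Gins3, while the Th1+TGFb points lie between -1.69 and -0.19.

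Stretches upstream of the gene starts were read to see what the genes share beside their values. RefSeq (GRCm38.p6) gave a window for 34 of the 42 genes. Those without one were Mcm4, Gins1, Gins2, Gins4, Gmnn, Rfc2, Pole and Prim2. E2F transcription factors are the textbook regulators of replication genes, and the words TTTCCCGC, TTTCGCGC, TTTGCCGC and TTTGGCGC of their binding motif were searched on both strands in the 250 bases upstream. Of the 34 genes, 8 (23.5%) held such a word, against 2.16% of 27025 genes with a window. The windows of the 42 genes held a median of 18 CG pairs, against 6 in all windows, and among the 7120 windows with at least 18 CG pairs 4.69% held a word. All 8 genes with a word are printed, and they span the smallest and the largest measured difference between rested and Th1 cells, bounds apart. Each line gives 60 bases, 5′ to 3′ on the strand of the gene, with the words in capitals.
Cdc6: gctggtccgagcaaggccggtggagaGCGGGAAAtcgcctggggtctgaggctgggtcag
Orc1: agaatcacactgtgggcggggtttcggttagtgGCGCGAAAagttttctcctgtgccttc
Mcm5: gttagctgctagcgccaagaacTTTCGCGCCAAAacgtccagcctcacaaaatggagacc
Mcm6: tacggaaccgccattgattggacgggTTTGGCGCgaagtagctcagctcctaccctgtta
Mcm7: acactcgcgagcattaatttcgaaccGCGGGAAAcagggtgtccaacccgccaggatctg
Gins3: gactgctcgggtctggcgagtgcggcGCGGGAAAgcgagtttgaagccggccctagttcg
Rfc3: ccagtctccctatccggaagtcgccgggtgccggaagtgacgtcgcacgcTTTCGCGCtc
Pola1: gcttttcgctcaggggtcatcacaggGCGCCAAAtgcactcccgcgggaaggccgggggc

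On GRCm38.p6 these stretches are chr11:98907987-98908046 (Cdc6, plus strand), chr4:108579394-108579453 (Orc1, plus), chr8:75109334-75109393 (Mcm5, plus) and chr1:128359719-128359778 (Mcm6, minus). The others are chr5:138172015-138172074 (Mcm7, minus), chr8:95633492-95633551 (Gins3, plus), chr5:151651209-151651268 (Rfc3, minus) and chrX:93632260-93632319 (Pola1, minus). In Mcm5 a pair of words overlap, so its capitals run longer. Words started between 10 bases (Rfc3) and 165 bases (Mcm7) upstream of the gene start, and Mcm6 held further words outside the bases shown.

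The same kind of word stood upstream of Gins3, with -0.49 between rested and Th1, and of Rfc3, with -4.78. The median difference was -3.25 for the 8 genes with a word and -2.80 for the 26 without. The CCAAT box, searched as CCAAT, was in 61.8% of the 34 genes, 37.5% of all genes with a window and 29.6% of windows with at least 18 CG pairs. The CHR element, searched as TTTGAA, was in 14.7% of the 34 genes, 18.3% of all genes with a window and 4.94% of windows with at least 18 CG pairs. A match describes the letters only, and binding was not measured.

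Th1reg cells were then set against the rested cells they came from, to follow the genes through renewed stimulation in the iTreg condition. TGF-b and days of culture also differed here, which cannot be told apart from the stimulation. In Th1reg 41 of the 42 genes stood at least 2-fold above rested and none below, against 29.6% higher and 19.0% lower among 13336 genes. The median log2 difference was 3.17 for the 42 genes and 0.36 for all genes. Among the 40 genes well above background on both arrays, Mcm10 was furthest apart at 27.4-fold, followed by Pole at 25.5-fold, Gins2 at 25.4-fold and Gins1 at 25.0-fold. Gins3 was the gene under 2-fold, with 0.39. Rpa1, at 2.47-fold, and Tyms, at 3.11-fold, passed here though they had not in the comparison of rested with Th1 cells.

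In all, 39 genes passed the 2-fold mark in both comparisons, lower in rested against Th1 and higher in Th1reg against rested, against 22.2% of all genes. These comparisons share the rested array, so a low reading there would enter both.

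**Figure D3:**
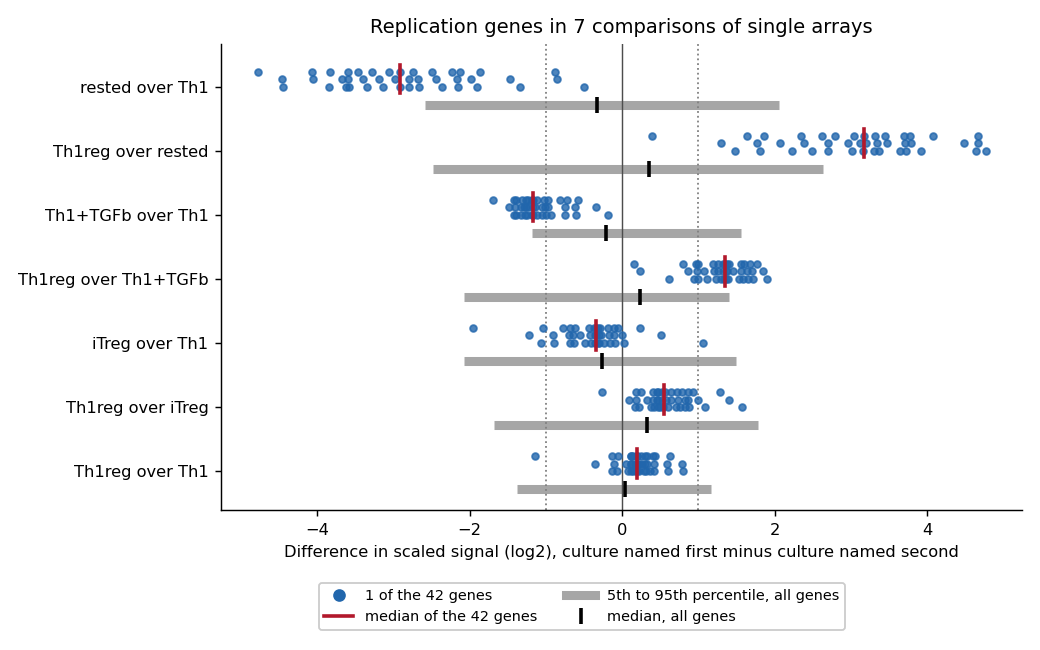
Differences in scaled signal (log2, horizontal axis) in 7 comparisons, with 1 blue point per gene of the 42, a red line at their median, and a grey bar from the 5th to the 95th percentile of all genes with a black line at the median. Most points lie outside the grey bar for rested over Th1 and Th1reg over rested, and inside it for iTreg over Th1, Th1reg over iTreg and Th1reg over Th1.

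Th1+TGFb cells also came from Th1 cells and stayed under receptor stimulation, in the iTreg condition. At the end of it 30 of the 42 genes were at least 2-fold lower in Th1+TGFb than in Th1 and none was higher, against 8.12% lower and 11.2% higher among 13059 genes. The median was -1.17 for the 42 genes and -0.22 for all genes. These cultures differed in TGF-b, in IL-12, in the block of IFN-g and in days of culture, which cannot be told apart. All 42 differences were below 0, between -1.69 for Orc1 and -0.19 for Tyms. The count rests on genes near the mark: it was 8 to 37 under other ways of processing, against 2.81% to 21.3% of all genes.

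By role, all 5 licensing genes passed, with Orc1 3.22-fold, Cdc6 2.79-fold and Cdt1 2.67-fold lower. So did 5 of 6 ring genes, Mcm6 being the exception at 1.52-fold, and 5 of 6 clamp and loader genes, Rfc2 being the exception at 1.68-fold. Of the helicase activators 4 of 6 passed, of the polymerases and primase 6 of 9, and of the deoxynucleotide genes 3 of 5. Of the single-strand binding and maturation genes Fen1 (2.40-fold) and Lig1 (2.32-fold) passed, and none of the RPA subunits. Among the genes that passed, Orc1, Cdc6 and Pola2 had signals under 100 in Th1+TGFb, in the range of lower precision. Cdt1 and Rfc1 stood out by order: they ranked 34 and 37 of 42 in their difference between rested and Th1, which shares the Th1 array, and had -1.41 and -1.25 here, close to the -1.29 of Rfc3.

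Th1reg and Th1+TGFb cells spent their last 4 days in the same condition and differed in the rest before it and in days of culture, which cannot be told apart. In Th1reg 33 of the 42 genes stood at least 2-fold above Th1+TGFb and none below, against 13.4% higher and 14.5% lower among 13215 genes. The median was 1.34 for the 42 genes and 0.23 for all genes. Gins1 was 3.73-fold, Lig1 3.60-fold, Pold2 3.41-fold and Mcm10 3.28-fold higher. All 6 ring genes, all 5 licensing genes and all 9 polymerase and primase genes passed.

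The 9 genes that did not pass included Rfc3, with 0.15, and Gins3, with 0.24. Rfc3 was thus 27.5-fold lower in rested than in Th1 and 12.5-fold higher in Th1reg than in rested, but had nearly the same level in Th1reg and Th1+TGFb. The others were Rfc2 (0.61), Gins4 (0.80), Rpa2 (0.87), Rpa3 (0.95), Tyms (0.97), Dut (0.99) and Rpa1, which fell just short of 2-fold.

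Over the 4 days in the iTreg condition, 30 genes were at least 2-fold lower at the end than at the start for Th1 cells, and 41 were at least 2-fold higher for rested cells. Both held for 30 of the 42 genes, against 5.03% of all genes, and these 2 differences share no array. As 41 genes were higher in Th1reg, the joint count is the 30 of Th1+TGFb against Th1 over again. The starting levels also differed, with a median of -2.91 for rested minus Th1. Among the 30 genes, Lig1 had -1.22 for Th1+TGFb minus Th1 and 4.48 for Th1reg minus rested. Rested minus Th1 and Th1reg minus Th1+TGFb also share no array: across the 42 genes their Pearson correlation was -0.42 and Spearman's rho -0.50, and across 12644 genes -0.36 and -0.43. Genes are not independent replicates, and these values describe the 4 arrays.

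iTreg and Th1 cells came from naive cells in 4 days each, with TGF-b or IL-12 among the differences. At the 2-fold mark 4 of the 42 genes were lower in iTreg and 1 was higher, against 18.6% lower and 10.3% higher among 13154 genes, a share of lower genes below the background. The lower genes were Rfc3 (-1.96), Orc1 (-1.22), Gins2 (-1.06) and Dut (-1.04), and the higher gene was Tyms (1.05). The ring genes were between -0.41 and -0.01. Pole, Pole2 and Cdc6 had differences above 0, of 0.51, 0.23 and 0.02, but the second probe of Cdc6 gave -0.66. The median of -0.35 for the 42 genes lay near the -0.27 of all genes, and 26 of the 42 genes changed sign under at least 1 other way of processing, so no direction is given for the set.

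Th1reg and iTreg cells finished in the same condition, from rested Th1 cells or from naive cells, after 12 and 4 days in all. At the 2-fold mark 4 of the 42 genes were higher in Th1reg and none was lower, against 17.5% higher and 11.5% lower among 13186 genes. The higher genes were Pold2 (1.57), Dut (1.40), Gins2 (1.28) and Rpa3 (1.09). Pold2 stood at 3.73 in Th1reg, 1.96 in Th1+TGFb, 1.03 in rested, 2.16 in iTreg and 2.94 in Th1. Th1reg was thus the only culture above Th1, as in all 29 genes with the full order. Dut stood at 3.90 in Th1reg, 2.92 in Th1+TGFb, 0.74 in rested, 2.50 in iTreg and 3.54 in Th1. The median was 0.55 for the 42 genes and 0.33 for all genes, and 15 of the 42 genes changed sign under at least 1 other way of processing.

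Th1reg against Th1 compares the end of the path with its first stage. Only Rfc3 was 2-fold apart, with -1.14, and no gene was 2-fold higher, against 8.24% lower and 6.53% higher among 12870 genes. The other differences lay between -0.36 for Orc1 and 0.80 for Pold2, and the median was 0.20 for the 42 genes and 0.04 for all genes. Rfc3 was -1.17 to -0.85 over the other ways of processing.

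How the arrays are put on 1 scale matters here, because rested was the dimmest array. With spike-in RNA as the scale, the median of all genes was -1.45 for rested minus Th1, 1.76 for Th1reg minus rested, -0.57 for Th1+TGFb minus Th1 and 0.87 for Th1reg minus Th1+TGFb. Relative to the median of all genes, the 42 genes' median over all settings tried was -3.22 to -2.18 for rested minus Th1 and 2.34 to 3.55 for Th1reg minus rested. It was -1.33 to -0.75 for Th1+TGFb minus Th1 and 0.93 to 1.60 for Th1reg minus Th1+TGFb. For single genes the direction in these 4 comparisons changed with the setting for Gins3, for Tyms in Th1+TGFb against Th1, and for Rfc3 in Th1reg against Th1+TGFb.

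Of all genes 2-fold apart between rested and Th1, 37.1% were higher in rested, against 65.4% when scaled to the 75th percentile of detected probes and 6.52% with spike-ins. For Th1reg over rested that share was 61.0%, against 36.5% and 92.9%. For Th1+TGFb over Th1 it was 57.9%, against 78.6% and 24.3%, and for Th1reg over Th1+TGFb 48.0%, against 27.5% and 84.3%. For iTreg over Th1 it was 35.7%, against 64.4% and 58.3%. For Th1reg over iTreg it was 60.3%, against 31.1% with detected probes. For Th1reg over Th1 it was 44.2%, against 65.6% with spike-ins. Scaling to the median of detected probes gave 52.5% for rested over Th1, 47.2% for Th1reg over rested, 73.2% for Th1+TGFb over Th1, 31.2% for Th1reg over Th1+TGFb, 46.6% for iTreg over Th1 and 46.8% for Th1reg over iTreg. The 42 genes did not split this way: none was called higher in rested than in Th1, or lower in Th1reg than in rested, under any setting.

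**Figure D4:**
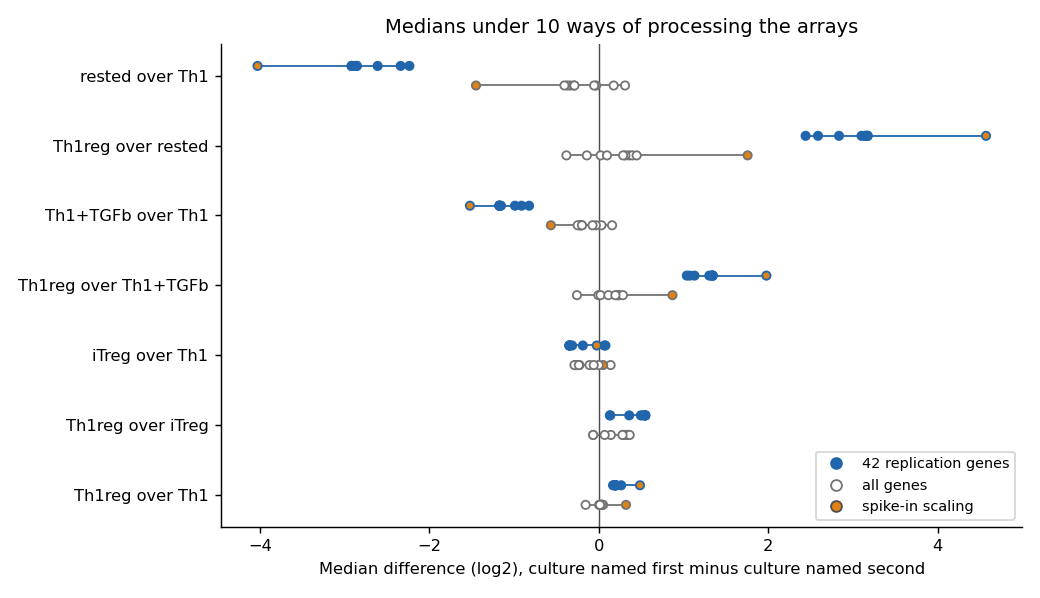
Median difference (log2, horizontal axis) of the 42 genes (filled) and of all genes (open) in 7 comparisons under 10 ways of processing the arrays, with spike-in scaling in orange. The medians of the 42 genes stay between -4.03 and -2.23 for rested over Th1 and between 2.44 and 4.57 for Th1reg over rested, while those of all genes cross 0.

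Other genes of the same pathways were taken from 5 lists. Their counts stand against shares of all genes of 28.2% lower in rested than in Th1, 29.6% higher in Th1reg than in rested, 8.12% lower in Th1+TGFb than in Th1 and 13.4% higher in Th1reg than in Th1+TGFb. In rested against Th1 cells, the 2-fold mark was passed downward by 20 of 23 other fork, polymerase and chromatin assembly genes and upward by none (median -2.85). Chtf18, part of another clamp loader, was 17.9-fold lower and so was Chaf1a, which assembles nucleosomes behind the fork. Uhrf1, which helps to copy DNA methylation, was 14.7-fold lower. In Th1reg against rested cells 21 of the 23 were higher, in Th1+TGFb against Th1 15 were lower, and in Th1reg against Th1+TGFb 17 were higher.

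Of 15 other origin and helicase genes, 9 were lower in rested than in Th1 and 1 was higher (median -1.35), and 10 were higher in Th1reg than in rested. Recql4 and Ticrr, which act in helicase loading and activation, were 13.5-fold and 13.4-fold lower in rested. The remaining subunits of the origin recognition complex, chosen after their values were seen, differed less between rested and Th1 than Orc1 and Orc6: -1.76 for Orc2, -1.04 for Orc3, 0.63 for Orc4 and -0.26 for Orc5. In Th1+TGFb against Th1, 7 of the 15 were lower.

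RNA of genes that make or break down precursors was also compared between rested and Th1 cells. Of 16 measured genes for deoxynucleotide supply 11 were lower and 1 was higher (median -1.60), and of 18 for the making of purine and pyrimidine rings 11 were lower and 1 higher (median -1.39). Shmt2, a mitochondrial enzyme of one-carbon metabolism, was 7.34-fold lower, Umps, the last enzyme of uridylate synthesis, 7.03-fold, and Ctps, which makes CTP, 6.03-fold. In Th1reg against rested cells 10 of the 16 were higher and 2 lower, and 13 of the 18 were higher and none lower. In Th1+TGFb against Th1, 4 of 16 and 4 of 18 were lower. Adssl1, an adenylosuccinate synthase best known from muscle, was 11.6-fold higher there.

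Of 25 measured S phase regulators, 19 were lower and 1 was higher in rested than in Th1 (median -1.53), and 18 were higher and 1 lower in Th1reg than in rested. E2f8 and E2f7, repressing members of the E2F family whose RNA peaks in S phase, were 14.5-fold and 13.9-fold lower in rested, and cyclin A2 (Ccna2) was 11.4-fold lower. Cdkn1b, which encodes the cell cycle inhibitor p27 and was chosen after its values were seen, went the other way: it stood at 3.16 in Th1reg, 4.14 in Th1+TGFb, 5.31 in rested, 3.65 in iTreg and 3.34 in Th1. Cdkn1a, which encodes the inhibitor p21, stood at 4.53 in Th1reg, 4.58 in Th1+TGFb, 2.08 in rested, 2.16 in iTreg and 5.47 in Th1, low in both rested and iTreg. Against Th1, Th1+TGFb had 6 of the 25 lower.

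**Figure D5:**
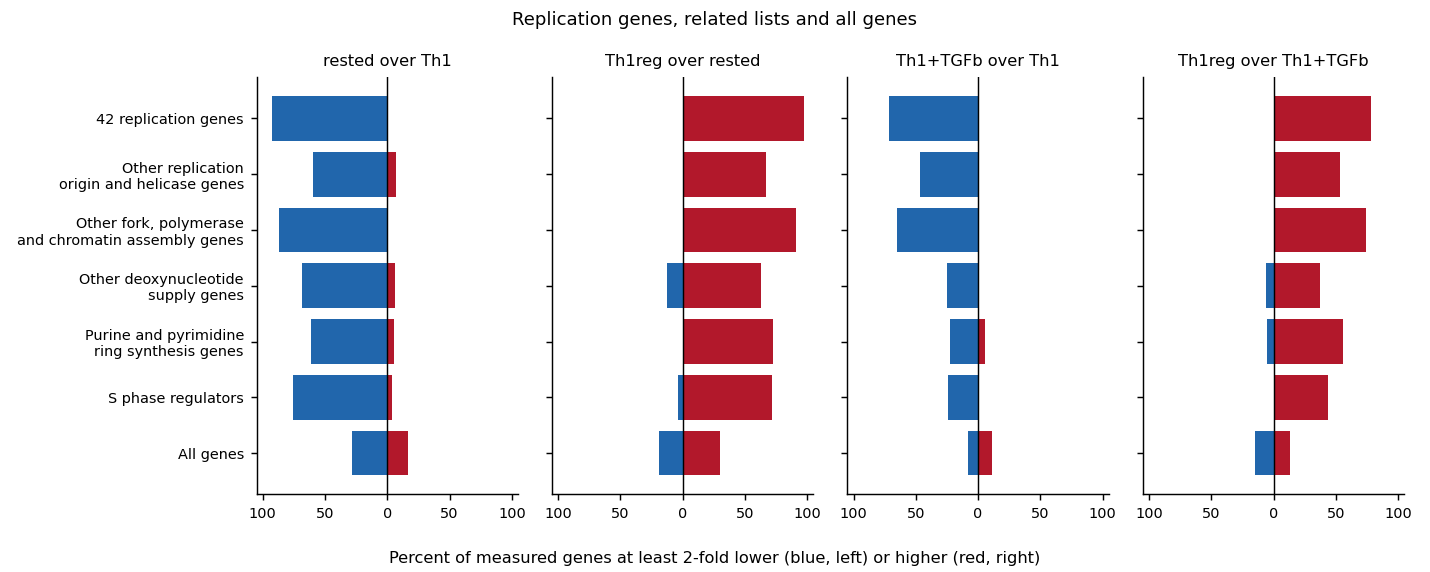
Percent of measured genes at least 2-fold lower (blue, left of 0) or higher (red, right of 0) in 4 comparisons, for the 42 genes, 5 related lists and all genes. In rested over Th1, 39 of the 42 genes were lower, against 9 of 15 other origin and helicase genes and 28.2% of all genes.

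Between iTreg and Th1, where 18.6% of all genes were lower and 10.3% higher, the genes apart in either direction were 1 of 15 origin genes, 2 of 23 fork genes, 5 of 16 deoxynucleotide genes, none of 18 ring synthesis genes and 1 of 25 S phase regulators. The 5 deoxynucleotide genes, 4 lower and 1 higher, are a share near that of all genes. Pold4, a further subunit of polymerase delta, stood 5.74-fold below Th1 in iTreg, and Dctd, dCMP deaminase, 3.66-fold below. Both were higher in Th1reg than in iTreg, by 2.87-fold and 5.68-fold. That direction is not particular to them: 41 of the 42 genes had a difference above 0, and the median of all genes was 0.33. Of the fork genes 2 of 23 were higher there, and of the deoxynucleotide genes 3 of 16, against 17.5% of all genes. Samhd1, a deoxynucleotide gene, went the other way and was 2.94-fold lower in Th1reg than in iTreg. For Cdkn1a the iTreg value lay 9.92-fold below Th1.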

How the data were processed

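The authors deposited 1 scanner file per array from Agilent Feature Extraction 10.7.1.1, per the file headers and the submitters' processing notes. Its processed signal is a linear intensity, which per the file headers the software had background-subtracted; no step puts the arrays on 1 scale. The deposited value table is an intensity too: 99.7% to 99.8% of its probes lay within 0.01 log2 units of 1 ratio to the scanner signal. Its column medians were 0.0693 (Th1reg), 0.103 (Th1+TGFb), 0.123 (rested), 0.0925 (iTreg) and 0.0762 (Th1), and it is not centred per gene. Its 75th percentile was 1.002 (rested) to 1.005 (Th1), so it was already on nearly the scale used here. It was run as an alternative, but its match to the main values was largely fixed beforehand.

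Each array had 62976 spots, 59305 of them not controls. Controls and 109 to 142 outlier spots per array were left out, and none was saturated. Signals were averaged per probe (55681 probes, 28331 named by RefSeq accession in a GRCm38.p6 gene table used for names only, since the array names the older build mm9) and divided by the array's 75th percentile over probes. A signal not well above background was raised to the lowest signal well above background on its array, giving a bound, and a gene dim on both was dropped from that comparison. Calls need a log2 difference of at least 1, which is 2-fold. With 1 array per culture no test was run.

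Python 3.11.15, pandas 2.3.3 and, for normexp (offset 50) with quantile normalization, limma 3.58.1 in R 4.3.3 were used. That setting was meant for the mean spot signal; the files hold the median spot signal, which was used instead. The steps were tested on simulated data. The 42 genes, the 5 related lists, the marker lists and the comparisons were chosen with earlier results of these data known. All 42 are named, and from each related list at most the 4 genes with the largest difference in a comparison among those well above background on both arrays; any further gene is said to be chosen after its values were seen. Results for a few list genes are not reported here.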

Additional observations from a re-analysis of the deposited data

Results flagged for a closer look

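The same 4 days in the iTreg condition went with differences of opposite direction by starting culture. Among the 42 genes, 30 passed the 2-fold mark both ways: upward in Th1reg against rested cells, and downward in Th1+TGFb against Th1 cells, against 5.03% of all genes. The difference between these effects was not tested, since each culture had 1 array. The 30 are all the members lower in Th1+TGFb than in Th1, so the joint count adds nothing to that count. The number was 8 to 37 under other ways of processing, against 1.23% to 18.5% of all genes. The genes outside this pattern were Mcm6, Gins3, Gins4, Rfc2, Pold2, Pold3, Pole2, Rpa1, Rpa2, Rpa3, Tyms and Dut.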

How the results depend on the processing

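No paired analysis was possible because each culture had 1 array and no replicates. For rested over Th1 the number of genes at least 2-fold lower was 37 to 42 under the alternatives, against 14.6% to 65.4% of all genes. For Th1reg over rested the number higher was 39 to 42 (16.0% to 71.6%), and for Th1reg over Th1+TGFb 24 to 40 (5.33% to 42.7%). None of the 42 was called in the other direction. For Th1+TGFb over Th1 the main count of 30 lower genes became 14 with detected probes' 75th percentile (4.10% of all genes). It became 19 with their median (5.03%) and 8 with normexp (2.81%). For iTreg over Th1 the main count of 5 genes apart became 2 with detected probes' 75th percentile, 3 with their median, 2 with spike-ins, 3 with normexp and 14 at 1.5-fold. For Th1reg over iTreg the main count of 4 became 1 with detected probes' 75th percentile, 2 with normexp and 19 at 1.5-fold. For Th1reg over Th1 the main count of 1 became 2 with spike-ins, both higher in Th1reg, and 6 at 1.5-fold. Called in every setting were 37 genes lower in rested than in Th1, 39 higher in Th1reg than in rested, 8 lower in Th1+TGFb than in Th1 and 21 higher in Th1reg than in Th1+TGFb. The order Th1reg, Th1, iTreg, Th1+TGFb, rested was found for 11 to 29 genes, against 3.38% to 17.7% of all genes. Rested was lowest for 40 to 42 (22.9% to 72.0%). Th1reg was highest for 23 to 39 (17.9% to 47.0%) and iTreg for 1 to 14 (13.7% to 27.6%). Scaling to the 75th percentile over spots in place of probes was chosen after seeing the data and changed no count by over 1.5 times. Why the counts moved was not tested. Signal over background limits the dim genes: Cdc6 and Orc1 were measured in rested cells only as bounds, and their signals in Th1+TGFb were 88.8 and 82.4. Tyms had a signal under 100 in Th1+TGFb, rested and Th1. Gins2, Cdc45, Gmnn, Rfc3, Pola1, Pola2 and Pole2 had one under 100 in rested, and Pola2 also in Th1+TGFb.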
